A study of Mus musculus with 12 samples.

Results

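The Fc gamma receptors of the mouse and the signalling subunit they share were followed through bile duct ligation (BDL), a model of cholestatic liver injury in which the common bile duct is tied off. The members were the 5 genes *Fcgr1*, *Fcgr2b*, *Fcgr3*, *Fcgr4* and *Fcer1g*, taken by symbol from the 16971 genes of the deposited expression table. All 5 passed the filter on low values (a sum of at least 10 normalized counts over all libraries), as did 12889 genes in all, the genes kept, which are the background of each share given here. All mice were *Prom1CreERT2-nLacZ/+;Rosa26Lsl-GFP/+* on C57BL/6 (a Prom1 line on the 6N and a reporter line on the 6J substrain were crossed), tamoxifen was given to every animal at 6 weeks of age, 7 days before surgery, and GFP(+) cells of the nonparenchymal liver fraction were sorted by FACS. Cre was driven by *Prom1* in all groups, so GFP marks cells that used this promoter at the time of tamoxifen, and cells derived from them. The 3 groups were collected on day 0 (D0), 3 days after BDL (D3) and 14 days after BDL (D14). The D0 animals were sham-operated according to the labels and taken before BDL according to the paper. The labels list 3, 3 and 6 libraries, and the table rests on 3, 3 and 4, since 2 D14 libraries were left out and are not named. The groups held animals of both sexes in unequal shares, so sex and group cannot be fully told apart.

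The table holds 1 mean per gene and group and no values of single libraries, so no test over libraries was made and no p-value is given. The error of each gene was taken from the gap between its group means and its geometric mean over all 10 libraries, which gives an approximate standard deviation (SD) on the log2 scale, pooled within the groups, with 7 degrees of freedom. Each log2 ratio of group means below carries the standard error (SE) that follows from it. The same columns, with the highest library of each gene, also limit how low or high any library of a group can have been. The pooled SD of the members was between 0.39 and 0.53, against a median of 0.39 over the 902 genes with a mean of at least 100 normalized counts. Differences are called by size, past the 1.5-fold that the study uses, and depth per library is unknown.

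The sorted cells carried abundant macrophage transcripts and, but for *Spp1*, few biliary ones in all groups, on the scale of normalized counts, which takes no account of transcript length. *Csf1r*, the receptor of the macrophage growth factor CSF1, had means of 1360, 2140 and 1230 normalized counts at D0, D3 and D14. *Prom1*, the gene that defines the labelled cells, had means of 6.66, 0.956 and 1.76, and *Krt19*, a keratin of bile duct cells, had 21.5, 12.7 and 14.3. Of the 12 listed biliary genes 9 were kept, with summed means of 549, 220 and 844, most of it from *Spp1*, the osteopontin gene that macrophages also use, with 459, 175 and 792. The cell type label (Prom1-expressing hepatic progenitor cells and progeny) does not match the RNA levels of *Prom1* and *Krt19*, and the libraries are called sorted GFP(+) cells below. By FACS, the paper found PROM1 protein on most GFP(+) cells before BDL and on fewer at D14, and RNA levels do not measure protein. In bulk RNA of such a sort, fewer cells of a type and less RNA per cell cannot be told apart.

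Fc gamma receptors bind the constant part of IgG and let macrophages and other leukocytes take up antibody-coated particles and immune complexes. *Fcgr1*, *Fcgr3* and *Fcgr4* encode activating chains, which signal through the small subunit encoded by *Fcer1g* and its immunoreceptor tyrosine-based activation motif (ITAM). *Fcgr2b* encodes the only inhibitory receptor of the family and carries an inhibitory motif (ITIM) in its own tail, which recruits the lipid phosphatase SHIP1. In the liver, *Fcgr2b* is known for its use by sinusoidal endothelial cells, which clear small immune complexes, and it is also used by B cells and some macrophages.

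The opposing signals are written in short stretches of coding sequence, shown here because the results turn on the balance between them. Both are from GENCODE M21 on GRCm38 and are read on the minus strand of chromosome 1, with the codons of the tyrosines and of the leucines or isoleucine that define each motif in capitals. The ITAM lies at chr1:171229889-171230072 and runs over the intron between exons 4 and 5 of 5, and the ITIM lies at chr1:170961071-170961088 in exon 8 of 8.
Fcer1g ITAM codons: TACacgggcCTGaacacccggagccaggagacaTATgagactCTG
Fcgr2b ITIM codons: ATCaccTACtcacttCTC
A search of the coding sequences of the 5 genes found this ITAM spacing 1 time in *Fcer1g* and 0 times in the 4 receptor chains. *Fcer1g* is the shortest of them, with 258 coding bases against 1212 in *Fcgr1*, 1020 in *Fcgr2b*, 801 in *Fcgr3* and 747 in *Fcgr4*.

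*Fcgr2b* and *Fcgr3* lie side by side with *Fcgr4* and share coding sequence in their immunoglobulin domains, which bears on how their reads can be told apart. The longest run in common is 129 bases, shown because any shorter read within it fits both genes, and lies at chr1:170966674-170968081 in *Fcgr2b* and chr1:171054167-171057792 in *Fcgr3*, in exons 3 to 4 of each and on the minus strand.
Shared run: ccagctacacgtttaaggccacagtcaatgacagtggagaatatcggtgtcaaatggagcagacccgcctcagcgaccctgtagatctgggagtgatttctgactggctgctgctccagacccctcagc
Of the coding windows of 50 bases, 17.1% of those in *Fcgr2b* and 22.1% of those in *Fcgr3* occurred in the other gene. At 75 bases these shares were 9.94% and 12.9%. How the authors' counting assigned such reads is not given in the sources used here, so the levels of *Fcgr2b* and *Fcgr3* are uncertain to that extent, although their means lay in opposite directions at D3 against D0. Over the whole *Fcgr2b* transcript, 12.5% of the 50-base windows also occurred in other genes, whereas those of *Fcgr1*, *Fcgr4* and *Fcer1g* shared 0.

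The 5 genes took 4 courses. *Fcgr2b* was lower at D3 and higher at D14 than at D0, *Fcgr3* was higher at both times, and *Fcgr4* and *Fcer1g* were higher at D3 and near the D0 level at D14. *Fcgr1* stayed within 1.5-fold throughout. Their summed means were 1548, 2274 and 2525 normalized counts at D0, D3 and D14.

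**Figure D1:**
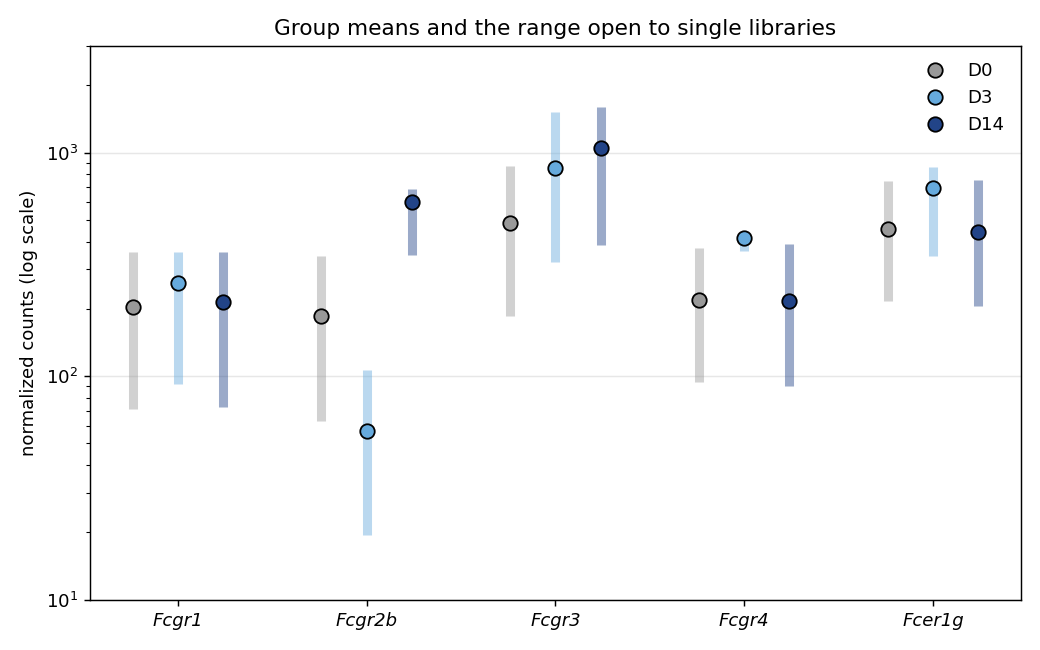
Group means of the 5 genes in normalized counts on a log axis (points, the authors' means of 3, 3 and 4 libraries), with bars for the range within which each library of the group must lie, given the mean, the highest library and the geometric mean. The *Fcgr2b* bar of D14 starts at 350, above the ends of the bars of D3 (106) and D0 (344), while the bars of the other 4 genes overlap between the groups.

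*Fcer1g* encodes the common gamma subunit, without which the activating chains are not held at the cell surface. On chromosome 1 (171229572 to 171234365, minus strand), it had means of 455 normalized counts at D0, 691 at D3 and 442 at D14, with a highest library of 864. The D3 mean was thus the highest, but libraries of D0 could reach 745 and those of D3 could be as low as 344, so the groups may overlap. The log2 ratio of D3 to D0 was 0.60 (SE 0.32), or 1.52-fold, and that of D14 to D0 was -0.04 (SE 0.30). The higher level at D3 passed 1.5-fold narrowly, and the log2 ratio was 0.43 under median-ratio scaling and 0.41 without the highest library, both under 1.5-fold. That library was one of D3, since those of D0 and D14 could reach at most 745 and 756. Between D14 and D3 the log2 ratio was -0.64 (SE 0.30), or 1.56-fold lower.

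*Fcgr1* encodes the high affinity IgG receptor CD64. On chromosome 3 (96282909 to 96293969, minus strand), it had means of 203, 261 and 214 normalized counts at D0, D3 and D14, and a highest library of 359. The log2 ratios against D0 were 0.36 (SE 0.42) at D3 and 0.08 (SE 0.39) at D14. Both were smaller than their errors and changed sign under quantile normalization, so no direction is given for *Fcgr1*. If its highest library was one of D0, the log2 ratio at D3 without that library was 1.06, so its size depends on the group of 1 unnamed library.

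*Fcgr3* encodes a low affinity activating receptor, the mouse CD16 of macrophages, neutrophils and NK cells. On chromosome 1 (171051174 to 171064935, minus strand), it had means of 486 normalized counts at D0, 850 at D3 and 1050 at D14, with a highest library of 1600. Its mean was thus highest at D14, the only activating chain of which this was so. The log2 ratios against D0 were 0.81 (SE 0.39), or 1.75-fold, at D3 and 1.11 (SE 0.37), or 2.16-fold, at D14. D14 and D3 differed by a log2 ratio of 0.30 (SE 0.37), which is within the error. The highest library was one of D14, since those of D0 and D3 could reach at most 870 and 1522. Without it, the log2 ratio of D14 to D3 was 0.03, so the 2 means were then about level. That of D14 to D0 was then 0.83, under 2-fold. Libraries of D0 could reach 870 and those of D14 could be as low as 388, so overlap remains possible in each comparison.

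*Fcgr4* encodes an activating receptor for IgG2a and IgG2b that is found on macrophages, monocytes and neutrophils. On chromosome 1 (171018920 to 171029761, plus strand), it had means of 219, 415 and 216 normalized counts at D0, D3 and D14. Its highest library, at 441, was one of D3, since libraries of the other groups could reach at most 375 and 388. All D3 libraries were at or above 362, so the ranges open to D3 and D0 met only between 362 and 375. For comparison, 3.05% of the genes kept were apart and higher at D3. The log2 ratio of D3 to D0 was 0.92 (SE 0.35), or 1.90-fold, and that of D14 to D0 was -0.02 (SE 0.32). From D3 to D14 the log2 ratio was -0.94 (SE 0.32), or 1.92-fold lower.

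*Fcgr2b*, the inhibitory receptor, differed most between groups. On chromosome 1 (170958617 to 170976547, minus strand), it had means of 185 normalized counts at D0, 57 at D3 and 603 at D14, with a highest library of 687 that was one of D14. The log2 ratio of D3 to D0 was -1.70 (SE 0.43), or 3.25-fold lower, and that of D14 to D0 was 1.70 (SE 0.40), or 3.26-fold higher. D14 stood above D3 by a log2 ratio of 3.40 (SE 0.40), or 10.6-fold. Its log2 ratio of D14 to D3 lay at percentile 98.8 of the genes kept.

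The libraries of D14 cannot overlap those of D3 for *Fcgr2b*. This follows from the means and the highest library alone, a limit that 0.132% of the genes kept passed in this direction. With the geometric mean as a further limit, which was added after the columns were seen, D14 libraries were at or above 350 and D3 libraries at or under 106, and 1.38% of the genes kept were apart in this way. The same limits put D14 above D0, whose libraries could reach 344, as for 2.8% of the genes kept, but the highest library alone did not, and 0.101% of the genes kept passed that stricter limit. For D3 against D0, overlap of *Fcgr2b* libraries was not excluded, since D0 libraries could be as low as 63.3, while 3.97% of the genes kept were apart and lower at D3.

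**Figure D2:**
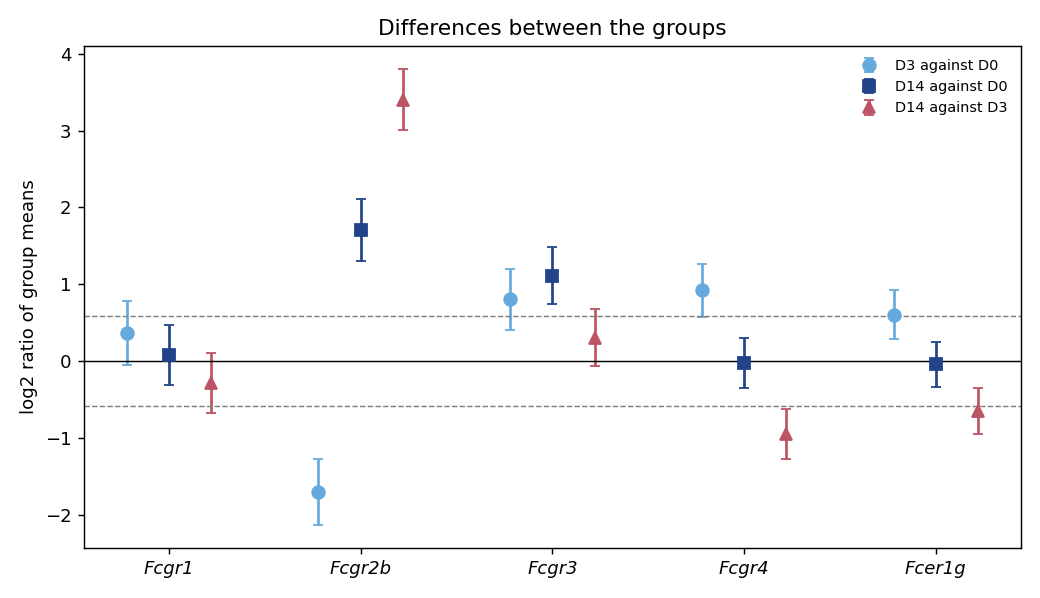
Log2 ratios of the group means for the 5 genes in the 3 comparisons, with the SE from the pooled SD as error bars and dashed lines at 1.5-fold. *Fcgr2b* lies at -1.70, 1.70 and 3.40, outside the dashed lines in each comparison, and *Fcgr1* lies between them in each.

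At D3 against D0, 3 of the 5 genes were more than 1.5-fold higher (*Fcgr4*, *Fcgr3* and *Fcer1g*), beside 19.2% of the genes kept, and 1 was more than 1.5-fold lower (*Fcgr2b*), beside 29.2%. The 3 higher genes depended on the scaling, since under quantile normalization of the group means none of them passed 1.5-fold, with log2 ratios of 0.47 for *Fcgr4*, 0.42 for *Fcgr3* and 0.20 for *Fcer1g*, and under median-ratio scaling 2 did. At D14 against D0, 2 were higher (*Fcgr2b* and *Fcgr3*), beside 21.2% of the genes kept, and 0 were lower, beside 28.8%. At D14 against D3, 1 was higher (*Fcgr2b*), beside 21.2%, and 2 were lower (*Fcgr4* and *Fcer1g*), beside 19.7%. Past 2-fold, 0 were higher and 1 was lower at D3 against D0 (beside 7.45% and 20.7% of the genes kept), 2 were higher and 0 lower at D14 against D0 (9.77% and 19.6%), and 1 was higher and 0 lower at D14 against D3 (13.1% and 10.1%). Of these calls, that of *Fcgr3* at D14 against D0 was lost without its highest library, with a log2 ratio of 0.83. With 5 genes, such counts say little about the family as a whole, and the comparisons with D0 share its 3 libraries. The course of *Fcgr2b*, past 1.5-fold lower at D3 and past 1.5-fold higher at D14, was shared by 257 of the genes kept (1.99%). That of *Fcgr3*, higher at both times, was shared by 1397 (10.8%), and that of *Fcgr4* and *Fcer1g*, higher at D3 and within 1.5-fold at D14, by 923 (7.16%).

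Levels of different genes were compared per kilobase of exon. At D0 the order was *Fcer1g* with 521 normalized counts per kilobase, *Fcgr3* with 280, *Fcgr4* with 174, *Fcgr1* with 78.4 and *Fcgr2b* with 32.0, and each neighbour differed by more than the combined pooled SD. At D3 the order was the same, with 791, 490, 330, 101 and 9.85 counts per kilobase, and *Fcgr3* and *Fcgr4* did not differ beyond their spread. At D14 *Fcgr3* led with 605 counts per kilobase, followed by *Fcer1g* with 506, *Fcgr4* with 172, *Fcgr2b* with 104 and *Fcgr1* with 82.7. There, *Fcgr3* and *Fcer1g* did not differ beyond their spread, and neither did *Fcgr2b* and *Fcgr1*. Over the length of its longest coding transcript *Fcgr2b* had 52.2, 16.1 and 170.1 counts per kilobase, which at D14 is next to *Fcgr4*.

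The balance of activating to inhibitory chains differed widely between the groups. Per kilobase, *Fcgr4* was 5.46 times *Fcgr2b* at D0, 33.6 times at D3 and 1.65 times at D14. *Fcgr3* stood at 8.76, 49.7 and 5.81 times *Fcgr2b*, and *Fcgr1* at 2.45, 10.2 and 0.794 times. Each of the 3 ratios was thus highest at D3 and lowest at D14. The summed activating chains per kilobase were 16.7, 93.5 and 8.26 times *Fcgr2b*, and these changes rest mostly on *Fcgr2b* itself. Of the 4 ligand-binding chains summed per kilobase, *Fcgr2b* made up 5.66% at D0, 1.06% at D3 and 10.8% at D14, while *Fcgr3* made up 49.6%, 52.6% and 62.8%. The sizes of these ratios and shares depend on the length used. Over the longest coding transcripts, *Fcgr2b* made up 7.84%, 1.49% and 14.1%. *Fcer1g* per kilobase was 0.977 times the summed activating chains at D0, 0.859 times at D3 and 0.588 times at D14.

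**Figure D3:**
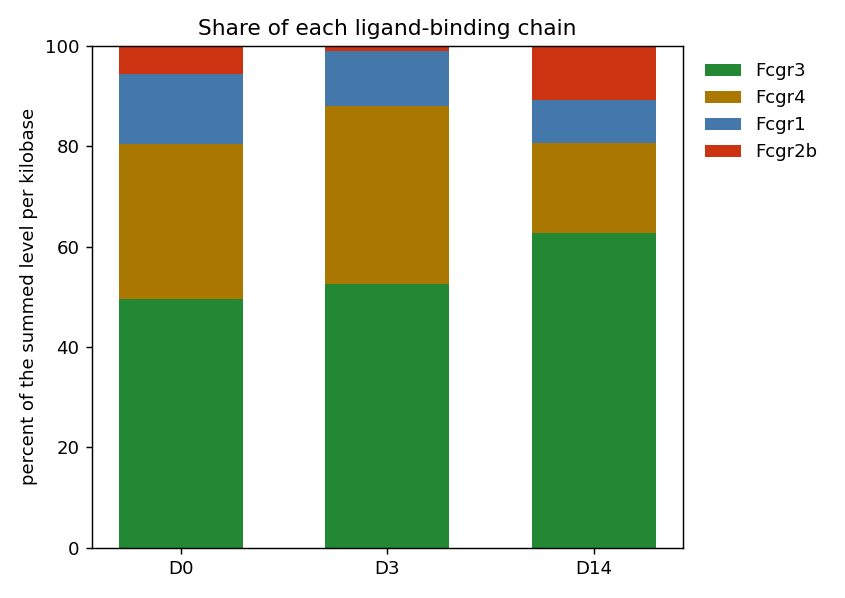
Share of each ligand-binding chain in the summed level of *Fcgr1*, *Fcgr2b*, *Fcgr3* and *Fcgr4* per kilobase of exon, in percent, from the group means. *Fcgr2b* is the top segment and goes from 5.66% at D0 to 1.06% at D3 and 10.8% at D14, and *Fcgr4* is largest at D3 with 35.5%.

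The members were set against the macrophage genes in the same libraries. Counts past 1.5-fold in this and the later lists stand beside 19.2% higher and 29.2% lower of the genes kept at D3. At D14 against D0 these shares were 21.2% and 28.8%. The median log2 ratio of 12 general macrophage genes was 0.72 at D3 and 0.02 at D14 against D0, with 9 more than 1.5-fold higher and 0 lower at D3, and 2 higher (*Itgam* at 2.31 and *Lyz2* at 2.30) and 1 lower (*Cd163*) at D14. Relative to that median, *Fcer1g* differed by -0.12 and -0.06 and *Fcgr4* by 0.20 and -0.04 on the log2 scale, at D3 and D14, which is less than their SE. *Fcgr3* was level with it at D3 (0.09) and above it at D14 (1.09). *Fcgr2b* stood apart from it in both directions, by -2.42 at D3 and 1.68 at D14. Against *Ptprc* alone, the pan-leukocyte CD45 gene, whose own log2 ratio at D3 was -0.20, *Fcgr2b* stood at -1.50 at D3, *Fcgr4* at 1.12, *Fcgr3* at 1.00, *Fcer1g* at 0.80 and *Fcgr1* at 0.56, so closeness to macrophage genes at D3 depends on the reference.

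Most genes of sinusoidal endothelial cells were also lower at D3 and higher at D14 than at D3. All 10 listed markers were kept and none was at 0, with summed means of 1367, 661 and 1186 normalized counts at D0, D3 and D14, and 9 of 10 were more than 1.5-fold lower at D3, with a median log2 ratio of -1.68 beside -1.70 for *Fcgr2b*. *Clec4g*, a lectin of these cells, had means of 241, 69.5 and 365, and *Kdr*, the VEGF receptor 2 gene, had 101, 22.5 and 133. *Gpr182*, another gene of this endothelium, had 131, 11.4 and 73.8. *Cdh5*, the VE-cadherin of all endothelium, ran the other way, with 207, 299 and 81.5. In none of the 3 comparisons were the libraries of any of the 10 genes shown to be apart by the limits used for *Fcgr2b*. At D14 against D0 the median of the list was -0.26, with 2 higher (*Bmp2* at 0.97 and *Clec4g* at 0.60) and 4 lower, against 1.70 for *Fcgr2b*. The part of these cells in the *Fcgr2b* result was not tested.

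Markers of monocytes and monocyte-derived cells were higher at D14, in step with *Fcgr2b* and *Fcgr3* at that time. The 9 listed markers summed to 432, 488 and 1937 normalized counts, and 5 of 9 were more than 1.5-fold higher and 3 lower at D14 against D0. *F13a1*, a coagulation factor gene of monocytes and macrophages, had means of 10, 23.5 and 334, *Cx3cr1*, the fractalkine receptor, had 11.7, 9.06 and 285, and *Ccr2*, the receptor that brings monocytes into tissue, had 15.3, 12.2 and 161. The highest D14 library of *Ccr2* stood at 431, and the D14 mean without it was 71.0 (means without the highest library were added after the data were seen). *Ly6c2*, a marker of inflammatory monocytes, was instead low, at 21.9, 8.19 and 6.69, with a D0 mean of 8.40 without its highest library. Kupffer cell genes followed the opposite course, with summed means of 10630, 23030 and 1487, and all 9 were more than 1.5-fold lower at D14 against D0. *Clec4f*, the lectin that defines resident Kupffer cells, had means of 4610, 6890 and 185, while *Fcgr1*, *Fcgr4* and *Fcer1g* were near their D0 levels. The part of either cell type in the members' levels was not tested.

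Markers of other cells that use Fc gamma receptors were mostly lower after BDL, in part through single D0 libraries. The 8 B and plasma cell markers, of which *Cd79a* had means of 50.6, 10.5 and 1.55, were more than 1.5-fold lower in 6 of 8 at both times, including D14, when *Fcgr2b* was highest. The 10 NK and T cell markers, a mixed list with T cell genes such as *Cd3e* and *Trac*, summed to 193, 73.3 and 17.9, with 9 lower at D3 and 10 at D14. Without its highest library, one of D0, *Cd3d* went from a log2 ratio of -1.51 to 1.04 at D3. The B cell gene *Pax5* likewise went from -1.82 to -0.37, while *Trac* and *Cd79a* stayed lower, at -1.72 and -1.69. At D14, *Cd3d* was then still lower (-0.94) and *Klrb1c* was within 1.5-fold (-0.46). Of the 10 neutrophil markers 9 were kept, with sums over the list of 560, 276 and 168 and medians of -0.64 and -1.97 on the log2 scale, while *Fcgr3* was higher at D14. Of 7 dendritic cell markers kept, 1 was higher and 6 lower at D3 and 4 were higher and 3 lower at D14, with summed means of 46.5, 40.7 and 87.4. Some of those higher at D14 rested on 1 D14 library. Without it, *Cd209a* went from 1.58 to -1.44 and *Zbtb46* from 0.72 to 0.14, while *Itgax* stayed higher at 2.96. Only 2 of 8 mast cell and basophil markers were kept. The part of any of these cells in the members' levels was not tested.

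**Figure D4:**
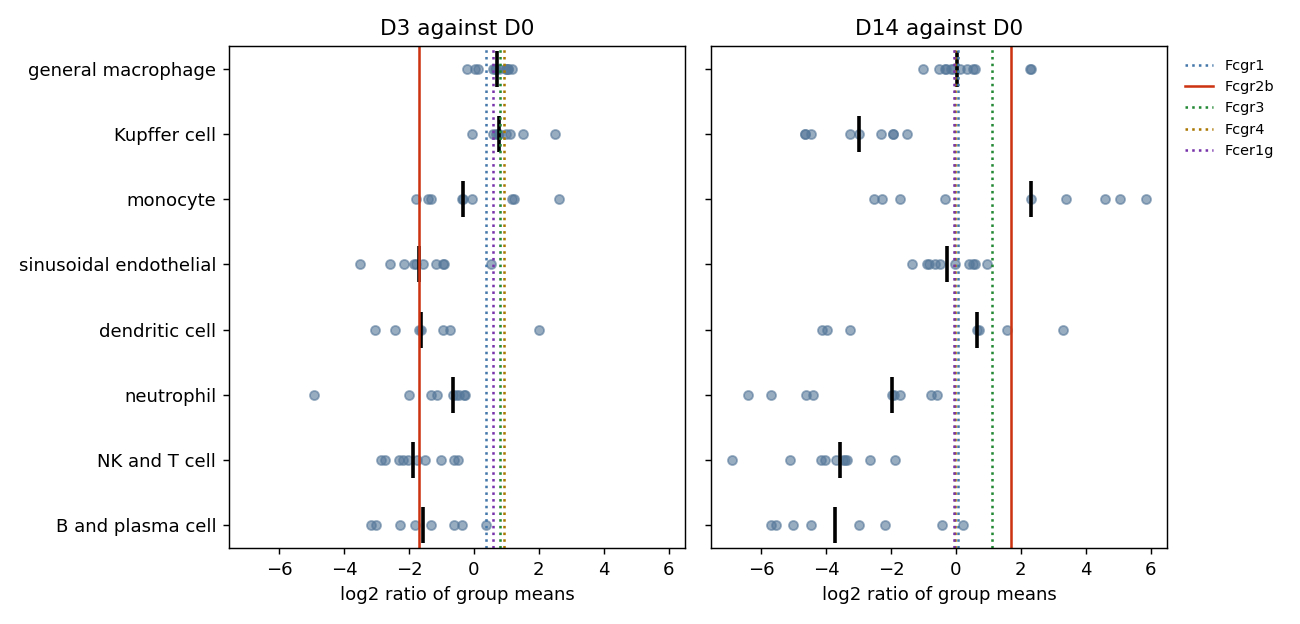
Log2 ratios of group means for the genes of 8 marker lists (dots) with the median of each list (black bar), for D3 and D14 against D0, with vertical lines for the 5 Fc gamma receptor genes. At D3 the *Fcgr2b* line at -1.70 falls near the medians of the sinusoidal endothelial (-1.68), dendritic cell (-1.64), NK and T cell (-1.89) and B and plasma cell (-1.57) lists, and at D14 its line at 1.70 lies between the general macrophage median of 0.02 and the monocyte median of 2.31.

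The remaining Fc receptors were mostly low and lower after BDL. Of 12 listed, 7 were kept, of which 0 were more than 1.5-fold higher and 4 lower both at D3 (median log2 ratio -1.65) and at D14 (-3.44), beside medians of -0.02 and -0.04 over all genes kept. These medians rest on genes of low level, since at D14 the median was -0.24 with no filter, -2.42 with a pseudocount of 1 and -0.75 with one of 10, and at D3 it was -0.52 with a pseudocount of 10. *Fcer2a*, the low affinity IgE receptor of B cells, had means of 14.3, 2.96 and 0.365 normalized counts, and *Fcmr*, the IgM receptor, had 23, 5 and 0.737, with 13.95 at D0 without its highest library. *Pigr*, which carries IgA and IgM through epithelial cells, had 28.4, 7.11 and 2.61. *Fcgrt*, the neonatal Fc receptor that recycles IgG, was the exception in level, with means of 263, 373 and 215, and stayed within 1.5-fold of D0.

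Mean levels of most immunoglobulin transcripts were lower after BDL, in part through single D0 libraries. Fc gamma receptors bind IgG, and of the genes kept only *Ighg2b* and *Ighg1* encode IgG heavy chains. *Ighm*, the IgM heavy chain, had means of 186, 37.9 and 34.1 normalized counts, *Igkc*, the kappa light chain, had 184, 33 and 13.4, and *Ighg2b*, an IgG heavy chain, had 35.7, 6.72 and 2.25. Without the highest library, which was one of D0 for all 3 genes, the D0 means were 115 for *Ighm*, 99 for *Igkc* and 4.70 for *Ighg2b*, so *Ighg2b* was then not lower at D3. Of the 6 immunoglobulin genes kept, 5 were more than 1.5-fold lower at both times. The exception, *Ighg1*, had means of 0.128, 2.07 and 1.66, and its D0 value is the lowest mean the table gives for that group, so no fold is given.

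Kinases and adaptors that act behind an ITAM showed no common course at D14. Of the 30 genes, 7 were more than 1.5-fold higher and 4 lower at D3 (beside 19.2% and 29.2% of the genes kept), with a median log2 ratio of 0.39. At D14, 7 were higher and 7 lower (beside 21.2% and 28.8%), with a median of -0.04. *Syk*, the kinase that binds the phosphorylated ITAM, had means of 139, 174 and 118 normalized counts, and *Fgr*, a kinase of the SRC family, had 56.2, 122 and 49.1, but its D3 mean was 67.5 without 1 library at 231. *Tyrobp*, the ITAM adaptor DAP12, had 1010, 1770 and 1080, a course like that of *Fcer1g*. *Lat2*, an adaptor that links such receptors to calcium signals, had 13.3, 6.78 and 75.2 and was the gene of the list with the highest log2 ratio at D14 against D0, while *Cd247*, the ITAM chain of T and NK cells, was the lowest (-4.71, or -3.17 without 1 D0 library).

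On the inhibitory side, the listed genes, which include other ITIM receptors, did not share the course of *Fcgr2b*. Of the 16 ITIM-side genes, 5 were more than 1.5-fold higher and 0 lower at D3, when *Fcgr2b* was lower, with a median log2 ratio of 0.32. At D14, 3 were higher and 2 lower, with a median of -0.03. Of the genes kept, 19.2% were higher and 29.2% lower at D3, and 21.2% and 28.8% at D14. *Inpp5d*, which encodes SHIP1, had means of 56.8, 87.2 and 103 normalized counts, with log2 ratios of 0.62 and 0.86. *Ptpn6*, the phosphatase SHP1, had 267, 291 and 165, *Cd300a*, another ITIM receptor, had 180, 390 and 207, and *Cd72*, an ITIM receptor best known from B cells, had 126, 135 and 40.9.

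Of 28 genes of the phagocytic machinery, 9 were more than 1.5-fold higher and 3 lower at D3 (beside 19.2% and 29.2% of the genes kept), and 11 were higher and 4 lower at D14 (beside 21.2% and 28.8%). The medians were 0.39 and 0.37 on the log2 scale, and that of D3 was 0.07 under quantile normalization. *Cybb*, the catalytic subunit of the phagocyte NADPH oxidase, had means of 219, 405 and 532 normalized counts, a course like that of *Fcgr3*, and its partner *Cyba* had 450, 933 and 546, a course like that of *Fcgr4*. *Gsn*, the actin-severing protein gelsolin, had 237, 41.7 and 154.

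Genes listed as other receptors that use the *Fcer1g* subunit divided at D14. Of the 8 kept of 11, 6 were more than 1.5-fold higher and 2 lower at D3 (beside 19.2% and 29.2% of the genes kept), with a median log2 ratio of 0.87. At D14, 2 were higher and 2 lower (beside 21.2% and 28.8%), with a median of 0.07. *Clec4n*, which encodes the fungal receptor Dectin-2, had means of 125, 346 and 117 normalized counts, a course like that of *Fcgr4*. *Clec4d*, a related lectin receptor, had 14.2, 26.8 and 55.1, with 36.1 at D14 without its highest library. *Clec5a*, known for its pairing with DAP12, had 1.78, 4.95 and 33.8, and its use of the *Fcer1g* subunit was not tested. *Clec4d* and *Clec5a* were the 2 genes higher at D14, and both were highest then. *Lilra5* had 118, 210 and 20.8.

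The genes closest in course to each member were sought among the 902 genes with a mean of at least 100 normalized counts, by the distance in the pair of log2 ratios against D0, which rest on 3 group means only. *Fcgr2b* had no gene within 0.25, and its nearest were *Fn1* at a distance of 0.65 (means of 137, 62.3 and 356), *Aqp1* at 0.75 (367, 107 and 715) and *Gpihbp1* at 0.79 (68.5, 36.2 and 204). Only *Cx3cr1*, *F13a1* and *Cd93* had larger log2 ratios of D14 to D3 in this set, and these 3 were named after their values were seen. *Fcgr4* had 29 genes within 0.25, with *Grb2* (145, 278 and 145), *Ptprj* and *Spi1* (200, 397 and 188) nearest. *Fcgr3* had 36, led by *Sdcbp*, *Apobec1* and *Sdf4*, *Fcer1g* had 61, led by *Vamp8*, *Myl12b* and *Atp6v0b*, and *Fcgr1* had 80, led by *Pea15a*, *Ywhaz* and *Vcp*.

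The promoters of the activating chains were searched for GAGGAA on both strands, the core bound by PU.1, the myeloid factor that *Spi1* encodes, in windows of 300 bases around each RefSeq gene start on GRCm38.p6. The motif was chosen after the data were seen, and a match is a description of letters only. It occurred in *Fcgr1*, *Fcgr3* and *Fcgr4*, in neither *Fcgr2b* nor *Fcer1g*, and in 28.3% of all 32851 promoters. The STAT motif TTCNNNGAA, searched in the same way, occurred in *Fcgr1* only, apart from the GAGGAA match, and in 8.3% of all promoters. The matches lie on the opposite strand, so each stretch of 30 bases, on the strand of its gene, has TTCCTC in capitals, at chr3:96294007-96294036 (minus), chr1:171059392-171059421 (minus) and chr1:171018892-171018921 (plus).
Fcgr1: atggcaacttccTTCCTCttttctaatctt
Fcgr3: gagtccatttccTTCCTCtttttgtagttc
Fcgr4: aaggctatttacTTCCTCtcttctagtcaa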

How the data were processed

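GFP(+) liver cells were sequenced (TruSeq mRNA, NextSeq). According to the paper the authors trimmed reads in Partek Flow, aligned and counted them with STAR on mm10 and GENCODE M18, and normalized by the upper quartile. The submitters' processing notes give STAR 2.6.1d, and the paper another version. The deposited signal values are the authors' group means (arithmetic, since weighted 3:3:4 they gave the mean over the 10 libraries back to within 0.678%), given with the sum, highest value and geometric mean over all libraries. The authors' p-values, FDR, ratios, log2 ratios, fold changes and confidence limits for 3 comparisons were not used. Their last coordinate is 1 past the gene and was reduced by 1, after which 99.9% of 16950 symbols had the GENCODE M21 coordinates.

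Python 3.11.15 (numpy 2.4.6, pandas 2.3.3) was used. Genes summing to under 10 normalized counts were left out. The pooled SD is an approximation from arithmetic and geometric means. It and the library limits were tested on simulated data without genes of low mean. The spread set there was below the pooled SD of *Fcgr1*, *Fcgr2b*, *Fcgr3* and *Fcgr4*. The simulation therefore says little about the SD of genes with wider spread or low means. Named genes are the members, the listed genes with extreme log2 ratios past 1.5-fold and defining markers, and the 3 nearest genes per member. Members and lists were chosen with earlier results of these data known. The paper gives the sexes of the animals of each group, so libraries were taken as animals. Alternatives were other scalings, pseudocounts, filters, folds, lengths and references.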

Additional observations from a re-analysis of the deposited data

How the results depend on the processing

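No direction past 1.5-fold of a member was turned by any alternative run. Some single genes of the lists did turn without their highest library, such as *Cd3d* at D3, from -1.51 to 1.04 on the log2 scale. Median-ratio scaling shifted the median log2 ratio of all genes by -0.18 at D3 and -0.13 at D14 against D0, and quantile normalization by 0.14 at both times. Quantile normalization gave log2 ratios at D3 of 0.47 for *Fcgr4* and 0.20 for *Fcer1g*, 0 members more than 1.5-fold higher at D3 (26.7% of genes), and 1 member lower at D14 against D3. At 2-fold, 0 members were higher at D3 and 0 lower at D14 against D3. Without the highest library of *Fcgr1*, its log2 ratio ranged from 0.063 to 1.06 at D3 and from -0.29 to 0.78 at D14 against D0, and these ends depend on the group that library came from. The cause of the moves under quantile normalization was not tested.

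With *Ptprc* in place of the macrophage median, the members at D3 stood at 0.56 (*Fcgr1*), -1.50 (*Fcgr2b*), 1.00 (*Fcgr3*), 1.12 (*Fcgr4*) and 0.80 (*Fcer1g*), and *Fcer1g* at -0.53 for D14 against D3, since *Ptprc* itself did not follow the list. The longest transcript, shorter than all exons together, gave *Fcgr2b* 52.2, 16.1 and 170.1 counts per kilobase. Adding the geometric mean placed 1 member, *Fcgr2b*, apart at D14 against D0. The changes of the activating to inhibitory ratios moved by less than the spread in 18 of 18 recomputations. These used only pseudocounts of 1 and 10, which are small beside most of the means, so they say little about how stable the ratios are. List medians moved by more than the spread in 15 of 285 recomputations, mostly under a pseudocount of 10.

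No paired analysis was possible because the table holds no values per library. For the same reason each replicate could not be left out in turn, and limma was not run. Group sizes of 3 to 4 and unknown depth limit all differences.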

Other observations

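Between *Fcgr3* and *Fcer1g* on chromosome 1 lie genes with unlike courses. *Sdhc*, a subunit of succinate dehydrogenase, had means of 78.8, 121 and 78 normalized counts at D0, D3 and D14, a course like that of *Fcgr4* and *Fcer1g*. *Apoa2*, an apolipoprotein of hepatocytes whose last base lies close to *Fcer1g*, had 109, 33.7 and 12.7, and *Pcp4l1* had 19.4, 1.81 and 3.64. *Gm38204*, an antisense transcript over the first part of *Fcgr2b*, had means of 0.437, 0.0729 and 0.321, so its reads were few beside those of *Fcgr2b*.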
